A study of Rattus norvegicus with 14 samples.

Results

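The 7 genes described here encode enzymes of hepatic nitrogen handling, followed in rat liver during orotic acid feeding: the urea cycle enzymes Cps1, Otc, Ass1, Asl and Arg1, glutamine synthetase (Glul) and ornithine aminotransferase (Oat). They were chosen by gene symbol, as every probe set that the platform annotation of the array gives to 1 of these 7 genes. The rule found 14 probe sets among the 4502 deposited, 2 each for Cps1, Otc, Asl and Oat, 1 each for Ass1 and Arg1, and 4 for Glul. All 7 genes passed the filter on low signals and were among the 1909 genes tested, and every member probe set lay above the lower signal limit on all 14 arrays.

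The urea cycle disposes of the ammonia released when amino acids are broken down, and in liver its enzymes are highest in the hepatocytes around the portal vein. Ammonia that passes them is captured as glutamine by glutamine synthetase, which is confined to a thin layer of hepatocytes around the central vein, where ornithine aminotransferase is also concentrated. The carbamoyl phosphate that Cps1 makes in mitochondria is the substrate of Otc, and carbamoyl phosphate is also the starting point of the pyrimidine pathway in which orotic acid is an intermediate, so that orotic acid in urine is a known sign of a block in the cycle. Orotic acid added to the diet of rats causes a reversible fatty liver.

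The study measured total liver RNA on Affymetrix arrays, 1 sample per array, in Wistar and Kyoto rats fed chow with 1% orotic acid. The groups were Wistar rats on standard chow (control, n = 3), Wistar rats fed orotic acid for 3 days (n = 2) or 14 days (n = 3), and Kyoto rats fed orotic acid for 1 day (n = 2), 3 days (n = 2) or 14 days (n = 2). All rats came from 1 supplier and the left lateral lobe was taken; unfed Kyoto rats and Wistar rats fed for 1 day were not analysed here. A difference between the strains therefore has no unfed Kyoto level to be set against, and a difference over time in Kyoto rats starts at 1 day of feeding. The labels do not state age or sex or whether each array is a different animal, so p-values measure the spread between these samples. "Kyoto" is the labels' own name for the strain.

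Values are log2 of the deposited signal after quantile normalization, so that a difference of 1 is 2-fold, and they compare arrays for 1 probe set, never 1 gene with another. The arrays correlated with each other at a median r of 0.895 to 0.952, the lowest being Kyoto day 1 replicate 1. Several arrays were nearest to an array of another group. Kyoto day 1 replicate 1 was nearest to Kyoto day 3 replicate 2 (r = 0.928), and Kyoto day 1 replicate 2 to Kyoto day 14 replicate 2 (r = 0.965). Kyoto day 3 replicate 1 was nearest to a Kyoto day 14 array (r = 0.967). Wistar day 14 replicates 1 and 2 were nearest to Wistar day 3 replicate 1 (r = 0.968 and 0.957), whose own nearest was Wistar day 14 replicate 1. Wistar control replicate 2 was nearest to a fed Kyoto array (r = 0.96). Wistar day 14 replicate 3 and control replicate 3 were each other's nearest (r = 0.97). Those last 2 arrays and Wistar day 3 replicate 2 carry no lot batch in the labels, while the other 11 carry lot batch 1. Each of the 3 Wistar groups holds 1 unlabelled array, and every Kyoto array is in lot batch 1. Whether the 3 unlabelled arrays form a batch of their own is unknown. The fits below with lot batch as a block set them against the other 11. The 7 measured hepatocyte markers summed to a signal between 116389 and 135677 on every array. Quantile normalization gives every array the same set of values, and several of these markers are among the highest. The sum is therefore held steady in part by the method and cannot show how much hepatocyte RNA an array held. Single markers did vary, Apob reading 11.16 and 12.92 on the Kyoto day 1 arrays. Both measured cholangiocyte markers (Krt19 and Epcam) were at or close to the lower signal limit throughout. In whole liver, fewer cells of a type and less RNA per cell cannot be told apart.

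Before the values, the sequence just before the start sites of Glul and Oat is given, because these were the members whose probe sets passed the test. RefSeq (build GRCr8) places Glul on chromosome 13 from 68519500 to 68585554 and Oat on chromosome 1 from 196777973 to 196797754. Promoter windows were given for 6 of the 7 members, Arg1 being the exception. Each run below is the 150 bases before a start site, 5′ to 3′ on the gene's strand, with capitals marking the CCAAT motif in either orientation (ATTGG on the printed strand is its reverse complement).
Glul, upstream start site, chr13:68519350-68519499, plus strand: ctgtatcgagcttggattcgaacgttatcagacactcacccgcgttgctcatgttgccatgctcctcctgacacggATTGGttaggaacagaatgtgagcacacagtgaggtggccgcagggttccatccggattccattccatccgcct
Glul, downstream start site, chr13:68575916-68576065, plus strand: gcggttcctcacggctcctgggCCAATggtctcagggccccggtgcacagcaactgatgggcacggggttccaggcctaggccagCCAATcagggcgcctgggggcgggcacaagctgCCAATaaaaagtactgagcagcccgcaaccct
Oat, chr1:196797755-196797904, minus strand: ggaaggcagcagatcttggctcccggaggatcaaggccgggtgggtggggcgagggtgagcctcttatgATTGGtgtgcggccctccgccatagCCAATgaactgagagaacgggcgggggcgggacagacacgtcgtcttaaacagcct
CCAAT, the box bound by factors such as NF-Y, was counted on both strands. It occurred 3 times before the downstream Glul start site, once before the upstream Glul start site and 2 times before the Oat start site, and it was in none of the windows of Cps1, Otc, Ass1 and Asl. Of 33469 rat promoter windows of this length 23.5% held it. The other 2 motifs searched were TATAAA (the core of the TATA box, in 8% of windows) and CTTTGA (the core bound by TCF factors, in 8.03%). TATAAA was found only before Ass1 and CTTTGA only before Cps1 and Otc, not before Glul. A match is a description of the letters, not evidence of a bound site.

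In Kyoto livers all 4 Glul probe sets were lower after 14 days of feeding than after 1 day, and both Kyoto day 14 arrays lay below all 12 other arrays on each of the 4. On M91652complete_seq_g_at the signal was 11.26, 12.03 and 11.44 in Wistar controls, 11.33 and 11.92 in Wistar day 3, and 11.39, 12.00 and 11.45 in Wistar day 14. In Kyoto rats it was 12.47 and 11.87 at day 1, 10.55 and 11.53 at day 3, and 9.60 and 9.31 at day 14. The Wistar groups overlapped, whereas in Kyoto rats the 3 days lay in descending order with no overlap. Groups that did not overlap, with the later day lower, were found for 12.6% of all genes from day 1 to day 3, 23% from day 3 to day 14 and 19.1% from day 1 to day 14. The share of all genes with both arrays of a group below all 12 others was not counted.

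The other 3 Glul probe sets gave the same order of the Kyoto group means. M91652complete_seq_at read 11.54 and 11 at day 1, 9.60 and 9.74 at day 3, and 8.27 and 8.92 at day 14, against 10.50, 10.34 and 10.32 in Wistar controls. rc_AA852004_s_at read 10.53 and 9.27 at day 1, 8.26 and 9.24 at day 3, and 7.34 and 7.42 at day 14, against 9.11, 9.32 and 9.49 in Wistar controls. rc_AI232783_s_at, which has the highest mean and therefore stands for Glul in the test by gene, read 12.60 and 11.73 at day 1, 11.14 and 12.27 at day 3, and 10.39 and 10.37 at day 14, against 11.55, 12.09 and 11.71 in Wistar controls. The last of these spread widely within Kyoto day 3 and within Wistar day 14 (12.02, 10.90 and 12.10), and days 1 and 3 overlapped on it. The 2 M91652 probe sets are named for the same transcript record, so they are not independent of each other. Across the 14 arrays the pairs of Glul probe sets correlated at r = 0.64 to 0.93.

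**Figure D1:**
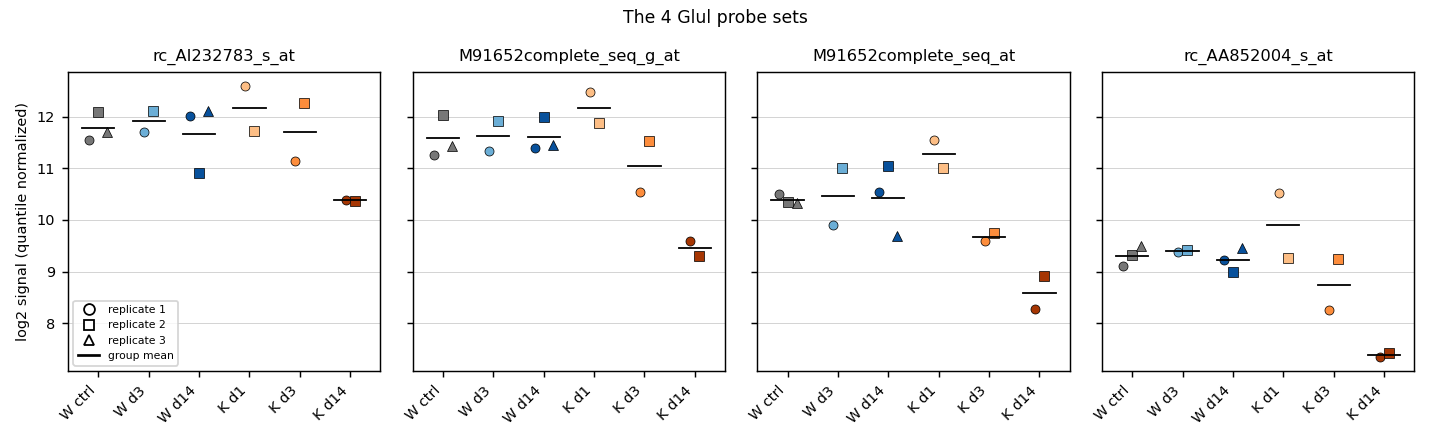
Log2 signal of the 4 Glul probe sets on each of the 14 arrays (y axis, quantile normalized, shared by the panels), by group (x axis; W, Wistar; K, Kyoto; ctrl, control; d, days of orotic acid). Symbols are replicates and bars are group means. On all 4 probe sets the 2 Kyoto day 14 arrays are the lowest of the 14, at 10.37 to 10.39, 9.31 to 9.60, 8.27 to 8.92 and 7.34 to 7.42. The share of all genes with such a pattern was not counted.

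With every probe set tested as its own feature, Glul was called lower at Kyoto day 14 than day 1 on 3 of the 4 probe sets. The log2 difference was -2.72 ± 0.38 (SE), or 6.57-fold, on M91652complete_seq_g_at (limma adjusted p = 0.00717). It was -2.68 ± 0.43, or 6.40-fold, on M91652complete_seq_at (adjusted p = 0.0175) and -2.52 ± 0.39, or 5.75-fold, on rc_AA852004_s_at (adjusted p = 0.0145). These held ranks 2, 4 and 3 by p among the 2466 probe sets tested, of which 4 in all (0.162%) were called, so 3 of 14 member probe sets were called, all of them Glul. On rc_AI232783_s_at the difference was -1.78 ± 0.44, or 3.44-fold, and missed the threshold (adjusted p = 0.168; 0.152 in the test by gene), where 0.0524% of genes were called and no member was.

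The Glul calls were lost in most fits that left out 1 Kyoto day 1 or day 14 array, which leaves 1 array in that group. Each of the 3 probe sets kept its call without Kyoto day 1 replicate 2 and lost it without day 1 replicate 1 (adjusted p = 0.131, 0.269 and 0.163 in the order of the preceding paragraph), without day 14 replicate 1 (0.137, 0.385 and 0.183) and without day 14 replicate 2 (0.124, 0.120 and 0.142). The differences stayed between -3.16 and -1.90 in these fits. All Kyoto arrays are in lot batch 1, and with only that batch in the fit rc_AA852004_s_at lost its call as well (adjusted p = 0.0761). All 3 calls were also lost without the filter on low signals (adjusted p = 0.0932, 0.116 and 0.0980) and when Kyoto days 1 and 14 were fitted alone (0.290, 0.290 and 0.312), and array weights ended that of M91652complete_seq_at (0.117).

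From day 3 to day 14 in Kyoto rats the Glul differences were -1.59 ± 0.38, -1.08 ± 0.43, -1.37 ± 0.39 and, on rc_AI232783_s_at, -1.32 ± 0.44, and none passed (limma adjusted p = 0.518, 0.951, 0.725 and 0.881). From day 1 to day 3 they were -1.13 ± 0.38, -1.60 ± 0.43 and -1.15 ± 0.39 on the first 3 (adjusted p = 0.771 on each). On rc_AI232783_s_at that difference was -0.46 and turned to 0.11 without Kyoto day 3 replicate 1. In the 2 Kyoto comparisons that involve day 3 no gene and no probe set was called (0% of those tested), while 5.81% of genes from day 1 to day 3 and 4.61% from day 3 to day 14 had an unadjusted p under 0.05.

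Between the strains, Glul was lower in Kyoto than in Wistar livers when the day 3 and day 14 means were averaged within each strain. The log2 difference was -1.37 ± 0.26 (2.58-fold) on M91652complete_seq_g_at, -1.31 ± 0.29 (2.49-fold) on M91652complete_seq_at and -1.25 ± 0.26 (2.37-fold) on rc_AA852004_s_at (limma adjusted p = 0.0151, 0.0307 and 0.0230). It was -0.75 ± 0.30 on rc_AI232783_s_at (adjusted p = 0.243; 0.231 by gene). Counting 1 Oat probe set, 4 of 14 member probe sets were called in this comparison, against 2.84% of all probe sets. The 3 Glul calls were lost with lot batch as a block (adjusted p = 0.0576, 0.0807 and 0.102) and among the 11 arrays of lot batch 1 (0.124, 0.0746 and 0.174), where the differences were -1.26, -1.22 and -1.18. Leaving out Wistar day 3 replicate 2, Kyoto day 3 replicate 1 or either Kyoto day 14 array also ended all 3 calls.

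The strains' difference was the larger at day 14: the mean on M91652complete_seq_g_at was 11.62 ± 0.42 in Wistar and 11.04 ± 0.69 in Kyoto rats at day 3 (SD, n = 2 each), and 11.61 ± 0.34 (n = 3) and 9.45 ± 0.21 (n = 2) at day 14. The strain by day interaction, which is the test of that change, was -1.58 ± 0.51 on this probe set and did not pass (limma adjusted p = 0.758). On the probe set with the highest mean it was -1.09 ± 0.60. No gene and no probe set passed for the interaction (0%), with 5.13% of genes at an unadjusted p under 0.05. At 1 day of feeding the Kyoto mean on M91652complete_seq_g_at was 12.17 ± 0.42, above the Wistar control mean of 11.58 ± 0.40 (n = 3), but strain and feeding cannot be told apart there. Any strain difference in how well a transcript hybridises to the probes was not tested.

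Likeness to Glul was read on rc_AI232783_s_at, the Glul probe set that was not called. Over the 14 arrays, the 3 genes that followed it most closely were Gulo (r = 0.81), Ptms (r = 0.79) and Ppp1r9b (r = 0.78), of 1501 others with a symbol. These are descriptions over arrays that share the same 6 groups, and they were 0.78, 0.74 and 0.73 without Kyoto day 1 replicate 1.

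Oat moves the delta-amino group of ornithine to 2-oxoglutarate and so draws ornithine out of the urea cycle towards glutamate and proline. It was higher in Wistar livers after 3 days of orotic acid than in controls and was lower in fed Kyoto than in fed Wistar livers, and only the strain difference passed the test. On M93297cds_at the signal was 11.14, 10.92 and 10.99 in Wistar controls, 12.04 and 11.96 in Wistar day 3, and 11.29, 11.69 and 11.23 in Wistar day 14. In Kyoto rats it was 10.26 and 11.15 at day 1, 10.77 and 11.35 at day 3, and 10.74 and 10.62 at day 14. Both Wistar day 3 arrays were above the other 12, and all 5 fed Wistar arrays were above all 3 controls. Among all genes, 14.6% in Wistar day 3 and 3.61% in Wistar day 14 lay wholly above the controls. The share with both arrays of a group above all 12 others was not counted.

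Averaged over days 3 and 14, Oat was 0.83 ± 0.21 lower on the log2 scale in fed Kyoto than in fed Wistar livers, or 1.78-fold (limma adjusted p = 0.0411). It was the only member called in the test by gene, in which 3.25% of the 1909 genes were called in either direction and 1.99% as lower in Kyoto. The arrays of the 2 strains overlapped, since Kyoto day 3 replicate 2 (11.35) was above 2 of the Wistar day 14 arrays. Leaving out any of the 9 arrays in turn ended the call, with adjusted p between 0.0511 and 0.184 and differences between -0.97 and -0.69. With lot batch as a block the difference was -0.89 (adjusted p = 0.0955), and among the 11 arrays of lot batch 1 it was -0.88 (adjusted p = 0.173). Without the filter on low signals the adjusted p was 0.0990.

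The Wistar day 3 level of Oat was 12.00 ± 0.05 (SD, n = 2) against 11.02 ± 0.11 in controls (n = 3), a difference of 0.98 ± 0.28 (SE) or 1.98-fold. Its unadjusted limma p was 0.00333 but its adjusted p was 0.244, in a comparison where no gene was called (0%) and 10.5% had an unadjusted p under 0.05. Fitted with array weights, it was called (adjusted p = 0.0387). At day 14 the Wistar mean was 11.40 ± 0.25 (n = 3), which was 0.38 ± 0.25 above control and 0.60 below day 3 (log2 difference -0.60 ± 0.28, adjusted p = 0.993). In order, the group means ran from Wistar day 3 through Wistar day 14 (11.40), Kyoto day 3 (11.06 ± 0.41), Wistar control (11.02) and Kyoto day 1 (10.71 ± 0.63) to Kyoto day 14 (10.68 ± 0.08). Kyoto day 3 and Wistar control, and Kyoto days 1 and 14, differed by less than their spread, while Kyoto day 1 ranged from 10.26 to 11.15 and so spanned the controls.

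The second Oat probe set, rc_AA893325_at, also stood above controls on both Wistar day 3 arrays, at 10.12 and 10.03 against 9.64, 9.46 and 9.66. It read 9.84, 10.12 and 8.98 in Wistar day 14, so that replicate 3 was below every control. All 6 Kyoto arrays lay between 9.14 and 9.45. Its strain difference was -0.64 ± 0.22 and did not pass (adjusted p = 0.154), and it correlated with the first probe set at r = 0.68. The genes most like Oat over the 14 arrays were Idi1 (r = 0.85), Csnk1a1 (r = 0.81) and Ugt1a5 (r = 0.80).

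**Figure D2:**
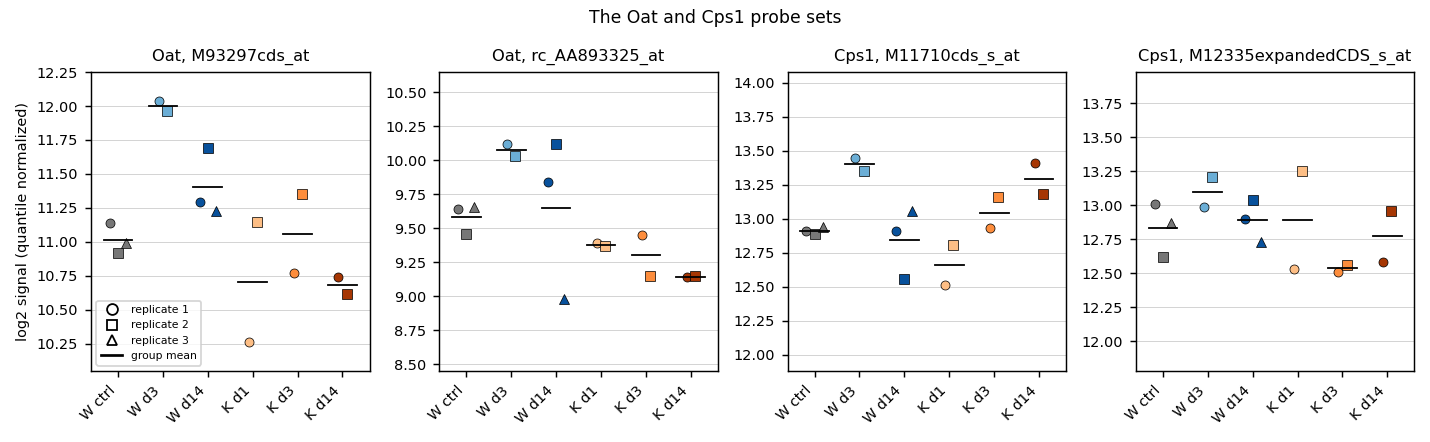
Log2 signal (y axis, quantile normalized; each panel has its own range) of both Oat and both Cps1 probe sets on each array, by group (W, Wistar; K, Kyoto; ctrl, control; d, days of orotic acid). Symbols are replicates and bars are group means. Both Oat probe sets are above all controls on the 2 Wistar day 3 arrays, and the 2 Cps1 probe sets do not rank the groups alike.

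Cps1 makes carbamoyl phosphate from ammonia in the mitochondrion and is the entry step of the cycle (chromosome 9, 76063863 to 76186739). Its probe set M11710cds_s_at was 12.91, 12.89 and 12.94 in Wistar controls, 13.45 and 13.35 in Wistar day 3, and 12.91, 12.56 and 13.06 in Wistar day 14. In Kyoto rats it was 12.51 and 12.81 at day 1, 12.93 and 13.16 at day 3, and 13.41 and 13.18 at day 14. The Wistar day 3 arrays were above all other Wistar arrays, and in Kyoto rats the 3 days lay in ascending order without overlap. Wistar day 14 lay wholly below day 3 for 8.59% of all genes. In Kyoto rats 15.5%, 18.8% and 19% lay wholly higher on the later day, from day 1 to 3, day 3 to 14 and day 1 to 14.

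None of these Cps1 differences passed. Wistar day 3 was 0.49 ± 0.18 above control (limma adjusted p = 0.351) and Wistar day 14 was below day 3 (log2 difference -0.56 ± 0.18, adjusted p = 0.993). Kyoto day 14 was 0.64 ± 0.20 above day 1 (adjusted p = 0.266), and day 3 was 0.39 above day 1. The interaction, in which the Wistar mean was lower at day 14 than at day 3 and the Kyoto mean higher, was 0.81 ± 0.27 (adjusted p = 0.854). The second probe set, M12335expandedCDS_s_at, did not give this pattern: it read 13.01, 12.62 and 12.87 in controls, 12.99 and 13.21 in Wistar day 3, and 12.53 and 13.25 in Kyoto day 1 against 12.58 and 12.96 in Kyoto day 14. The 2 probe sets correlated at only r = 0.07 over the 14 arrays, so the Cps1 pattern above belongs to 1 probe set. The genes most like M11710cds_s_at were Tra2b (r = 0.84), Aldh6a1 (r = 0.83) and Eif4a2 (r = 0.81).

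Otc joins carbamoyl phosphate to ornithine to make citrulline (chromosome X, 15126358 to 15202473). On M11266_at it was 11.51, 10.83 and 11.09 in Wistar controls, 11.56 and 11.67 in Wistar day 3, and 10.85, 11.67 and 10.78 in Wistar day 14. In Kyoto rats it was 9.0 and 10.77 at day 1, 10.44 and 10.79 at day 3, and 11.02 and 10.69 at day 14. Kyoto day 1 replicate 1 was far below its pair and below every other array. The second probe set, K03041mRNA_s_at, was also lowest on that array (7.29 against 8.67 in its pair), and the 2 probe sets correlated at r = 0.74.

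No Otc comparison passed. Kyoto day 14 was 0.98 ± 0.47 above day 1 on M11266_at (limma adjusted p = 0.504), and this was 0.09 without Kyoto day 1 replicate 1. The difference from day 1 to day 3 was 0.73 and turned to -0.15 without that array. Wistar day 3 was 0.47 ± 0.43 above control, both arrays lying above all 3 controls on both probe sets. On M11266_at the gap was small (11.56 against 11.51). Among all genes, each by 1 probe set, 14.6% lay wholly above the controls in Wistar day 3. Fed Kyoto was below fed Wistar for Otc (log2 difference -0.62 ± 0.32). The genes most like Otc were Sec62 (r = 0.92), Etfa (r = 0.92) and Maob (r = 0.91), and these were 0.76, 0.74 and 0.84 without Kyoto day 1 replicate 1.

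Ass1 condenses citrulline with aspartate (chromosome 3, 35144765 to 35194632). Its single probe set, X12459_at, stayed between 13.21 and 13.92 on all 14 arrays. The group means were 13.56 ± 0.16 in Wistar control (n = 3), 13.69 ± 0.22 in Wistar day 3 (n = 2), 13.73 ± 0.27 in Wistar day 14 (n = 3), 13.55 ± 0.47 in Kyoto day 1, 13.80 ± 0.14 in Kyoto day 3 and 13.67 ± 0.03 in Kyoto day 14 (SD, n = 2 each). In the comparisons made, only Kyoto days 3 (13.90 and 13.70) and 14 (13.69 and 13.64) did not overlap, day 14 being the lower. Kyoto day 14 lay wholly below day 3 for 23% of all genes. No Ass1 comparison reached an unadjusted limma p under 0.05, which does not show that the levels were equal. The genes most like Ass1 were C1qbp (r = 0.89), Asgr2 (r = 0.87) and Cby1 (r = 0.87).

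Asl splits argininosuccinate into arginine and fumarate (chromosome 12, 32295779 to 32313257). On D13978_s_at it was 10.98, 11.06 and 10.92 in Wistar controls, 11.34 and 11.47 in Wistar day 3, and 11.34, 10.77 and 11.12 in Wistar day 14. In Kyoto rats it was 11.12 and 11.30 at day 1, 11.26 and 11.13 at day 3, and 11.81 and 11.17 at day 14. Both Wistar day 3 arrays were above the controls on this probe set and on AB016536_s_at, where they read 10.93 and 10.83 against 10.37, 10.08 and 10.08. The difference was 0.42 ± 0.24 on the former and 0.70 ± 0.23 on the latter (limma adjusted p = 0.297), and neither passed. Among all genes, each by 1 probe set, 14.6% lay wholly above the controls in Wistar day 3. With every probe set as a feature 0.0406% were called in this comparison, none of them a member. The interaction was 0.63 ± 0.36 on D13978_s_at. The 2 probe sets correlated at r = 0.72, and the genes most like D13978_s_at were Hsp90b1 (r = 0.78), Vegfa (r = 0.74) and Azgp1 (r = 0.73).

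Arg1 hydrolyses arginine to urea and ornithine and closes the cycle (chromosome 1, 22295093 to 22307720). Its probe set J02720_at was 12.15, 11.80 and 12.13 in Wistar controls, 11.91 and 11.50 in Wistar day 3, and 11.81, 11.98 and 11.85 in Wistar day 14. In Kyoto rats it was 10.37 and 11.46 at day 1, 11.62 and 11.28 at day 3, and 11.66 and 11.79 at day 14. As for Otc, Kyoto day 1 replicate 1 was the lowest of the 14 arrays. Kyoto day 14 was 0.81 ± 0.31 above day 1 (limma adjusted p = 0.412), which was 0.27 without that array, and the difference of 0.54 from day 1 to day 3 became -0.01. Wistar day 3 was below control (log2 difference -0.32 ± 0.28), the only member with that sign. The genes most like Arg1 were Dpp4 (r = 0.89), Akr1c14 (r = 0.88) and Etfa (r = 0.87), which were 0.58, 0.64 and 0.48 without Kyoto day 1 replicate 1.

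**Figure D3:**
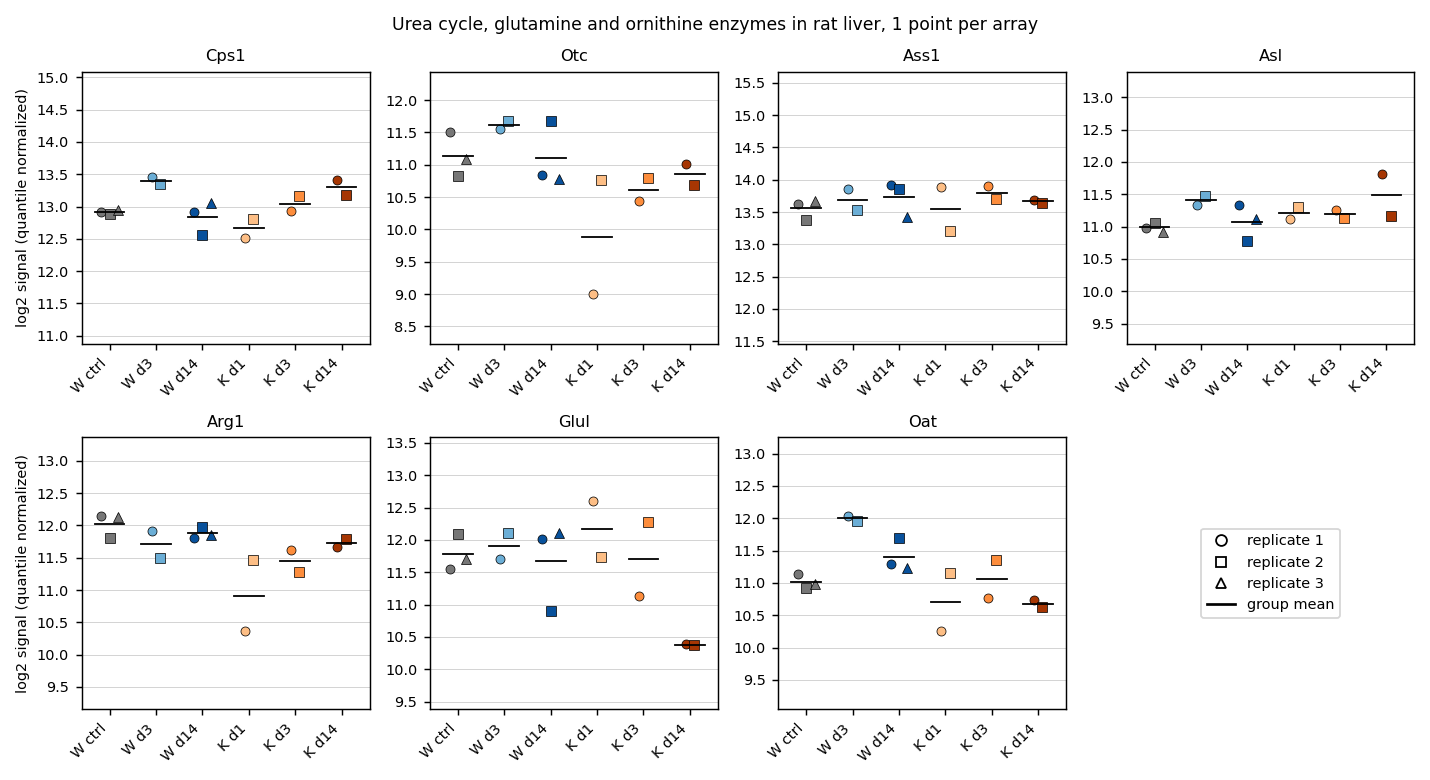
Log2 signal of the 7 genes on each array (y axis, quantile normalized; panels share the span of the axis but not its range, and each gene is its probe set with the highest mean), by group (W, Wistar; K, Kyoto; ctrl, control; d, days of orotic acid). Symbols are replicates and bars are group means. Glul is lowest in Kyoto day 14, Oat is highest in Wistar day 3, and 1 of the 2 Kyoto day 1 arrays is far below its pair for Otc and Arg1.

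Across the 7 genes, 6 were higher and 1 lower in Wistar day 3 than in control, with a median log2 difference of 0.42, and 2 reached an unadjusted p under 0.05, against 10.5% of all genes. For 4 of them (Cps1, Otc, Asl and Oat) the 2 groups did not overlap and day 3 was the higher, which was so for 14.6% of the genes tested. On the second Cps1 probe set, M12335expandedCDS_s_at, the groups overlapped (12.99 to 13.21 in day 3, 12.62 to 13.01 in controls). The median over all genes in this comparison was -0.04, and it was -0.18 on signals as deposited, where 4 and not 6 members were higher. In Wistar day 14 against control 3 were higher and 4 lower (median -0.04), with none called or at an unadjusted p under 0.05 (0% and 5.19% of all genes).

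From Wistar day 3 to day 14, 5 of the 7 were lower (median -0.33) and none was called (0% of all genes); 2 had an unadjusted p under 0.05, against 4.45%. In Kyoto rats from day 1 to day 14, 5 were higher and 2 lower (median 0.28), and 3 had an unadjusted p under 0.05 against 10.1% of all genes. Kyoto day 1 replicate 1 decides part of this picture. Without its pair, replicate 2, so that it alone stood for day 1 and was taken to vary like the other groups, Cps1, Otc, Arg1 and Glul were all called (adjusted p = 0.0486, 0.0114, 0.00906 and 0.0188), against 8.43% of all genes. With replicate 1 itself left out no member was called, and 0.0524% of all genes. The summed signal of the 2 measured red cell markers was also highest on that array (16442, against 5832 to 13581 on the other 13), and their part in the result was not tested.

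**Figure D4:**
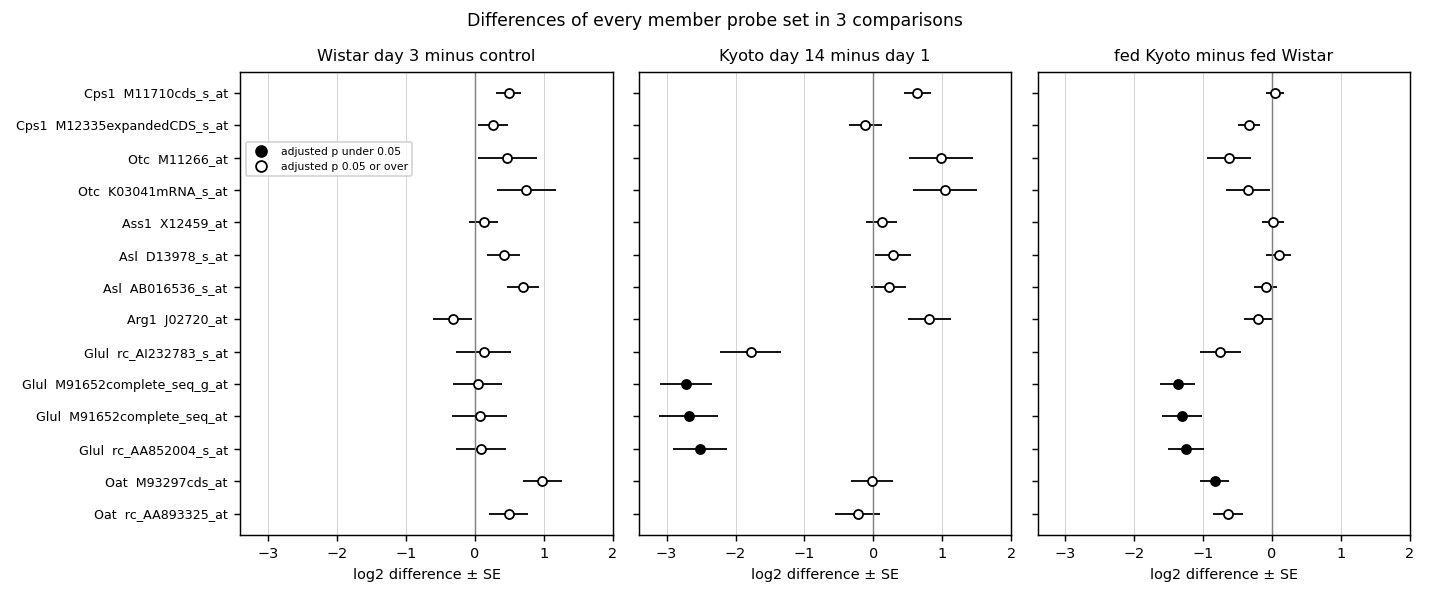
Log2 differences with standard errors (x axis) of the 14 member probe sets (y axis) in 3 comparisons, from the limma fit with every probe set as a feature. Filled points have an adjusted p under 0.05. From Kyoto day 1 to day 14, 3 Glul probe sets are filled at -2.72, -2.68 and -2.52, and between the fed strains the same 3 and an Oat probe set are filled.

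Related genes were read from lists of the neighbouring pathways. Of 7 further urea cycle genes (such as the ornithine transporter Slc25a15 and Arg2) none was measured. Of 16 genes of glutamine and glutamate metabolism 5 were tested, and none was called in any comparison. The alanine aminotransferase Gpt was 0.94 ± 0.34 above day 1 in Kyoto day 14 (limma adjusted p = 0.375) and 0.69 ± 0.31 above control in Wistar day 3 (adjusted p = 0.459). The aspartate aminotransferase Got1 was 0.81 ± 0.22 above fed Wistar in fed Kyoto livers (adjusted p = 0.0626). Liver glutaminase, Gls2, which releases ammonia from glutamine next to Cps1, was 0.54 ± 0.27 higher in Kyoto day 14 than day 1 (adjusted p = 0.519).

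Of 16 genes of ornithine, proline and polyamine metabolism 5 were tested and none was called. The antizyme gene Oaz2, whose product restrains ornithine decarboxylase, was lower in Kyoto day 14 than day 1 (log2 difference -1.04 ± 0.34, limma adjusted p = 0.283), and the difference was -0.54 without Kyoto day 1 replicate 1. Prodh2 was lower in fed Kyoto than fed Wistar livers (log2 difference -0.45 ± 0.20, adjusted p = 0.314). All 6 tested genes of the list of 16 for pyrimidine synthesis and breakdown and orotate transport likewise missed the threshold. Upb1, the last enzyme of uracil breakdown, was 1.19 ± 0.28 higher in Kyoto day 14 than day 1 (adjusted p = 0.152) and Dpyd, its initial enzyme, was 1.27 ± 0.48 higher (adjusted p = 0.412). Without Kyoto day 1 replicate 1 these were 1.43 and 0.28. Dpys, which acts between them, was lower in fed Kyoto than fed Wistar livers (log2 difference -0.53 ± 0.17, adjusted p = 0.108).

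Genes known for a place in the liver lobule were set beside Glul and the urea cycle enzymes. Of 11 pericentral genes 3 were tested, and none was called in any comparison. From Kyoto day 1 to day 14 Glul was lower on every probe set and called on 3. There the pericentral P450 gene Cyp1a2 differed by -0.67 ± 0.31 (limma adjusted p = 0.490), Cyp2e1 by 0.26 ± 0.21 and Cyp7a1 by 0.24 ± 0.49. Without Kyoto day 1 replicate 1 they differed by -0.37, 0.47 and -0.46. Of 13 periportal genes 10 were tested and none was called. In the same comparison 7 of these 10 were higher (median 0.21, against 0 over all genes). Among them were the histidine-degrading enzyme Hal at 1.08 ± 0.26 (limma adjusted p = 0.152) and the serine dehydratase Sds at 1.52 ± 0.51 (adjusted p = 0.322). The others had lower means at day 14 than at day 1: Pck1 (12.71 against 13.32), Tat (11.84 against 11.95) and Alb (14.46 against 14.47). Without Kyoto day 1 replicate 1 Pck1 differed by -0.72, Tat by -0.39 and Alb by 0. Between the fed strains 9 of the 10 were higher in Kyoto (median 0.34, against 0.03 over all genes), with Sds at 1.22 ± 0.34 (adjusted p = 0.0680) and Hal at 0.50 ± 0.18 (adjusted p = 0.159). In Wistar day 3 the periportal lipid droplet enzyme Hsd17b13 was below control (log2 difference -1.01 ± 0.28, adjusted p = 0.244).

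Of 12 regulators of these genes 7 were tested and none was called. The growth hormone receptor Ghr was lower in Wistar day 3 than control (log2 difference -1.60 ± 0.43, limma adjusted p = 0.243). In Kyoto day 1 the liver factor Foxa2 read 6.93 and 7.10, close to the lower signal limit of 6.85. It was 1.49 ± 0.47 higher in Kyoto day 14 than day 1 (limma adjusted p = 0.269). Cebpb, a regulator of urea cycle genes, was lower there (log2 difference -0.95 ± 0.33, adjusted p = 0.350), and the difference was -0.41 without Kyoto day 1 replicate 1. Among markers of other cells, the Kupffer cell lectin Clec4f was higher in fed Kyoto than fed Wistar livers (0.82 ± 0.20, adjusted p = 0.0418), the only marker called. The 4 measured Kupffer cell and macrophage markers summed to 4547 to 5409 on the fed Kyoto arrays of days 3 and 14. They summed to 3170 to 4232 on the fed Wistar arrays. The sums were 4425, 5001 and 4409 in Wistar controls and 5164 and 4055 in Kyoto day 1, so these overlapped the Kyoto range of the later days. The 5 stellate cell markers summed to 10382 and 12266 on the Kyoto day 1 arrays. They summed to 5919 and 8437 at day 3 and to 8539 and 8554 at day 14. Their mean log2 signal was 10.07 and 10.39 at day 1, 9.59 and 9.76 at day 3, and 9.60 and 9.35 at day 14. From day 1 to day 14 their median log2 difference was -0.92. The part of these markers in the Glul and Oat differences was not tested.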

How the data were processed

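RNA from the 14 liver samples was hybridised to Affymetrix rat arrays, and the authors deposited 1 MAS5 signal intensity per probe set and array, per the submitters' processing notes (the MAS5 version is not given in the sources used here). The deposited intensities ran from 0.64 to 47932, and their number of arrays limits the precision. After 24 control probe sets and the rows blank on any array (375, of which 3 arrays held the blanks) were removed, 4110 rows were log2 transformed. The 2% trimmed mean differed between arrays by 25.1% (870 to 1089), above the 5% limit set for leaving signals as they were, so log2 values were quantile normalized. Values under the 25th percentile (6.85 on the log2 scale, a signal of 115) were raised to it. Each gene was its probe set with the highest mean (3181 features), and the upper 60% by mean were tested: 1909, of which 1502 have a symbol, all called genes here. Symbols came from the platform annotation (3700 probe sets with 1 symbol, 229 with several, 573 with none), and 3688 matched RefSeq by gene ID. limma 3.58.1 in R 4.3.3 fitted 6 group means (8 residual degrees of freedom) with an intensity trend. It gave 8 comparisons, two-sided, with Benjamini-Hochberg adjustment over all features and a threshold of 0.05. A further fit kept every probe set as a feature (2466 tested). The fitting was tested on simulated data.

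Named genes are all members and the 3 genes most correlated with each. Also named are up to 2 genes of each list with the smallest p in a comparison (up to 4 where any passed). Some genes were added after their values were seen. In Kyoto day 14 against day 1 these were Gls2, Cyp2e1, Cyp7a1, Pck1, Tat and Alb. The others were Hal between the strains and Apob within Kyoto day 1. The members and lists were chosen with earlier results of these data known. Alternatives covered scaling, floor, filter, probe set rule, lot batch, arrays with blank rows, the groups in the fit, the variance model and leaving out each array. The same alternatives on the fit by probe set, the fit with only lot batch 1, and list genes without either Kyoto day 1 array, were chosen after seeing the data. Groups of 2 or 3 arrays are too small for a test of single outlying samples.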

Additional observations from a re-analysis of the deposited data

How the results depend on the processing

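No paired analysis was possible because the labels carry no replicate numbers that link samples across groups. Not every difference was followed through the alternatives. In the test by gene, none of those followed changed sign under the 15 that kept all arrays or only those of lot batch 1. Nor did those of the Glul and Oat probe sets in Kyoto day 14 against day 1 (Glul) and between fed strains (both) under 13. Some that were not followed did change sign. On signals as deposited, the members higher moved from 5 to 6 in Kyoto day 3 against day 1. Between fed strains they moved from 3 to 2, and to 1 with median centring. For the interaction they moved from 5 to 3 on signals as deposited and with median centring. Differences by probe set in other comparisons were not followed. Leaving out 1 array changed more signs. Without Kyoto day 1 replicate 2, differences from Kyoto day 1 to day 14 that were not followed became -0.22 for Ass1 (0.12 with all arrays) and 0.42 for Oat (-0.02). Of the followed differences 3 changed sign, all from Kyoto day 1 to day 3. Otc ran from -0.15 without Kyoto day 1 replicate 1 to 1.63 without replicate 2, Arg1 from -0.01 to 1.09 without the same arrays, and Glul from -1.02 without Kyoto day 3 replicate 2 to 0.11 without replicate 1. The Oat strain call held in 12 of these 15 and was lost without the filter on low signals and in both fits on lot batch. With every probe set a feature it held in 8 of 13, being lost also with the upper 40% (adjusted p = 0.0521) and with no intensity trend (0.0511). Counts of calls were less stable, and the cause was not tested. Without the filter on low signals the genes called numbered 2 from Kyoto day 1 to 3, 3 from day 1 to 14, 1 from day 3 to 14 and 1 between fed strains, with 0 members called between fed strains and 0 member probe sets called there or in Kyoto day 14 against day 1. Testing only the upper 40% gave 39 calls between fed strains. Keeping every probe set gave 1 call in Wistar day 3 against control and 4 in Kyoto day 14 against day 1. Averaging probe sets gave 5 and 2, with 1 member called in Kyoto (Glul, -2.43, adjusted p = 0.00407) and 2 between fed strains (Oat, and Glul at -1.17, adjusted p = 0.0121). With lot batch as a block 21 genes, 0 members and 0 member probe sets were called between fed strains, and with only lot batch 1 it was 20, 0 and 0, with 3 genes called in Wistar day 14 against control and 0 in Kyoto day 14 against day 1. Fitting only the groups compared gave 5 calls in Wistar day 3, 0 genes and 0 member probe sets in Kyoto day 14 against day 1, and 103 between fed strains. Array weights gave 19 in Wistar day 3 (1 member and 1 member probe set, Oat), 1 in Wistar day 14 against control, 0 in Kyoto day 14 against day 1, 1 against day 3, and 135 between fed strains. Leaving out 1 array at a time, genes called ran from 0 to 7 (Wistar day 14 against control), 0 to 75 (Kyoto day 3 against day 1), 0 to 161 (Kyoto day 14 against day 1) and 11 to 57 (fed strains), members from 0 to 2, 0 to 4 and 0 to 0 in the last 3 of these, and member probe sets from 0 to 3, 0 to 6 and 0 to 4. Scaling by the deposited signals or by medians moved the median of all genes in Wistar day 3 against control from -0.04 to -0.18 and -0.19, and the members higher there from 6 to 4, since the small Ass1 and Glul differences turned lower. Every member lay above the lower signal limit on all arrays, and the number of arrays limits the precision.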
